A study of Mus musculus with 6 samples.

Results

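The mitochondrial ribosomal protein genes were followed in Ube3d knockout and wild-type 3T3-L1 cells. They were taken as every listed gene whose symbol is Mrps or Mrpl followed by a number and at most 1 letter from a to d, which gave 77 of the 24421 listed genes. Of these, 29 carry a small-subunit symbol (Mrps) and 48 a large-subunit symbol (Mrpl). All 77 passed the filter on low counts and were among the 12947 genes tested.

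The 3T3-L1 line derives from mouse embryonic fibroblasts and serves as a model of preadipocytes. One group was knocked out for Ube3d (KO) and the other was wild type (WT), each with 3 libraries, and both were undifferentiated and growing in log phase. Ube3d encodes a ubiquitin ligase. The sources used here do not say how many KO clones there were or which part of the gene was removed. RNA was depleted of ribosomal RNA before sequencing, and the reads were counted per gene.

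Mitochondria have ribosomes of their own, which translate the few proteins that the mitochondrial genome encodes, all of them subunits of the oxidative phosphorylation complexes. The ribosomal RNAs of these particles come from mitochondrial DNA, whereas every protein of the particle is encoded in the nucleus, made in the cytosol and imported. Some of these proteins descend from bacterial ribosomal proteins and others were added in the mitochondrial lineage.

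The libraries held between 25267434 and 28042970 gene counts in KO and between 23767181 and 29389480 in WT. Ube3d, listed under its older symbol Ube2cbp, had 56, 43 and 53 counts in KO and 145, 229 and 173 in WT, with no overlap. It was 3.62-fold lower in KO (log2 fold change −1.86, SE 0.15, edgeR adjusted p = 6.6e-18). All 8 fibroblast and preadipocyte markers were at 1 CPM or more, that is, counts scaled to library size with TMM factors, and their summed level was 8668 to 8899 CPM in KO and 9949 to 10338 CPM in WT. They did not move together, since 6 fell, among them Col1a1 by 2.27-fold, Dlk1 rose to 1868 CPM in KO, against 862.5 CPM in WT, and Vim did not pass the test. Of the markers of other cell types, 2 of 5 macrophage markers reached 1 CPM, with a summed level of 6.64 to 7.26 CPM in KO and 5.35 to 6.67 CPM in WT, and 0 of 4 epithelial and 0 of 3 endothelial markers did. Epcam, Krt18 and Adgre1 had no count. The precursor of the cytosolic ribosomal RNA, Rn45s, took 9.68 to 10.2% of the counts in KO and 7.28 to 8.91% in WT. With Rn45s left out of the counts, 36 of the mitochondrial ribosomal protein genes were called lower and 6 higher, beside 39 and 6 with it.

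More of the mitochondrial ribosomal protein genes were lower in KO than higher, and the changes were small. Of the 77 genes, 39 fell and 6 rose (edgeR quasi-likelihood test, adjusted p under 0.05), and 32 did not pass the test. Among all tested genes 61.4% were called, 30.3% higher and 31.2% lower, against 7.79% higher and 50.6% lower among these. The share called in either direction, 58.4%, was thus close to that of all genes. The log2 fold change was negative for 61 genes and positive for 16, with a median of −0.12 over the members and 0.0041 over all tested genes, and it ran from −0.59 to 0.38. Only 17 genes passed 0.32 in absolute log2 change and 3 passed 0.5. The median SE was 0.057.

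**Figure D1:**
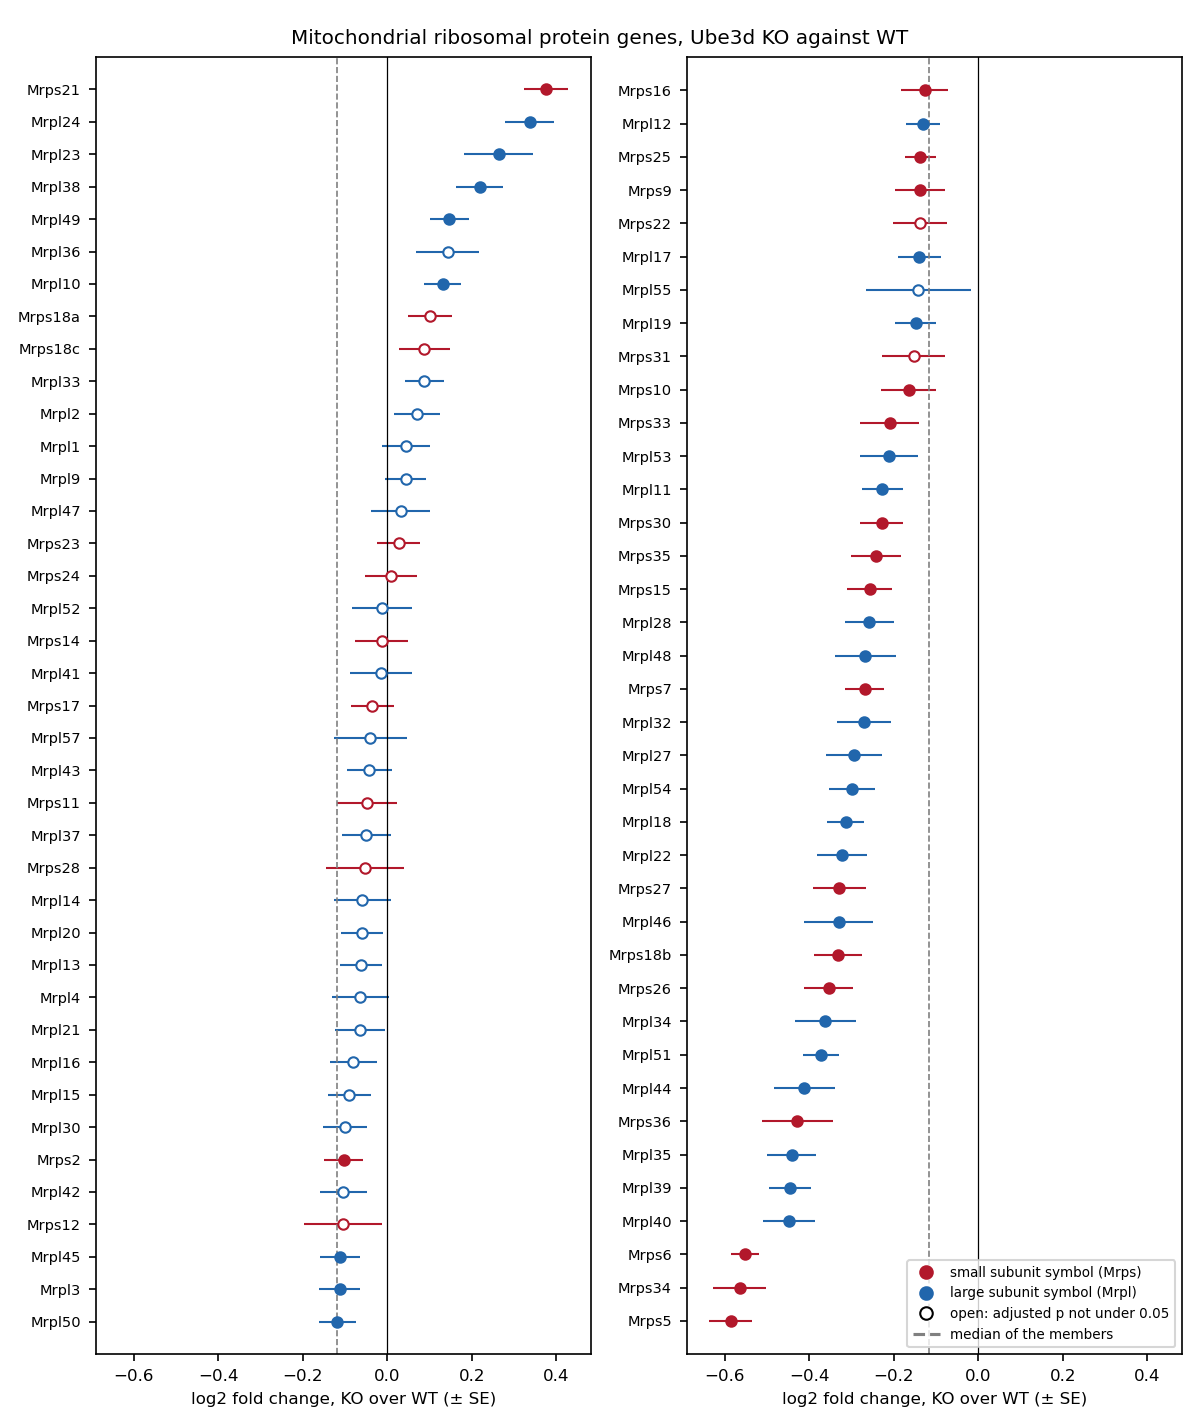
Log2 fold change, KO over WT, of the 77 mitochondrial ribosomal protein genes with its SE, ordered from the largest rise to the largest fall and split over 2 panels. Red points are Mrps genes and blue points Mrpl genes; open points did not pass the test, and the dashed line is the median of the members at −0.12. Most points lie left of 0.

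Every KO library was below every WT library in 38 of the 77 genes and above in 7, and the groups overlapped in 32. Over all tested genes the groups did not overlap in 64.3%, with KO below in 32.5% and above in 31.8%. Mrpl45 was called lower although its groups overlapped, and Mrpl36 lay above WT in every KO library without being called (log2 fold change 0.14, edgeR adjusted p = 0.087). Among the 8209 tested genes within the CPM range of the members, 29.2% were higher and 33.5% lower, with a median log2 fold change of −0.016. The median absolute log2 change was 0.14 for the members and 0.18 for those genes. In bulk libraries such as these, fewer cells expressing a gene and less RNA per cell cannot be told apart.

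By subunit, 17 of the 29 Mrps genes fell (58.6%) and 1 rose (3.45%), with a median log2 fold change of −0.14. Without KO replicate 1, 2 Mrps genes rose, Mrps21 and Mrps18a. Of the 48 Mrpl genes 22 fell (45.8%) and 5 rose (10.4%), with a median of −0.10. Among all tested genes 31.2% fell and 30.3% rose. The difference between the subunits was not tested. The summed level of the Mrps genes was 886.1, 902.5 and 907.1 CPM in KO and 1040, 1017 and 1042 CPM in WT. The groups did not overlap, and the KO mean of 898.6 ± 11.0 CPM stood 13.0% under the WT mean of 1033 ± 13.9 CPM (SD, n = 3 each). For the Mrpl genes the sum was 1500.0, 1501 and 1520 CPM in KO and 1661, 1592 and 1642 CPM in WT. Here too the groups stood apart, and the KO mean of 1507 ± 11.4 CPM was 7.61% under the WT mean of 1631 ± 35.7 CPM (SD, n = 3 each). The TPM scale divides by gene length and sets every library to the same total, without TMM factors. On it the differences were −8.97% for Mrps and −4.33% for Mrpl. Library scaling thus also differs between CPM and TPM, and the size of the difference depends on the scale. A sum weighs abundant genes most. Mrps6 alone had 307.7 TPM in KO and 438.7 TPM in WT, within Mrps sums of 2056 and 2258 TPM. In CPM it had 101.4 in KO and 148.8 in WT. Much of the Mrps difference in summed TPM was thus that of Mrps6, and sums without it were not taken. With 3 libraries against 3, an exact two-sided permutation test cannot give a p under 0.1.

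**Figure D2:**
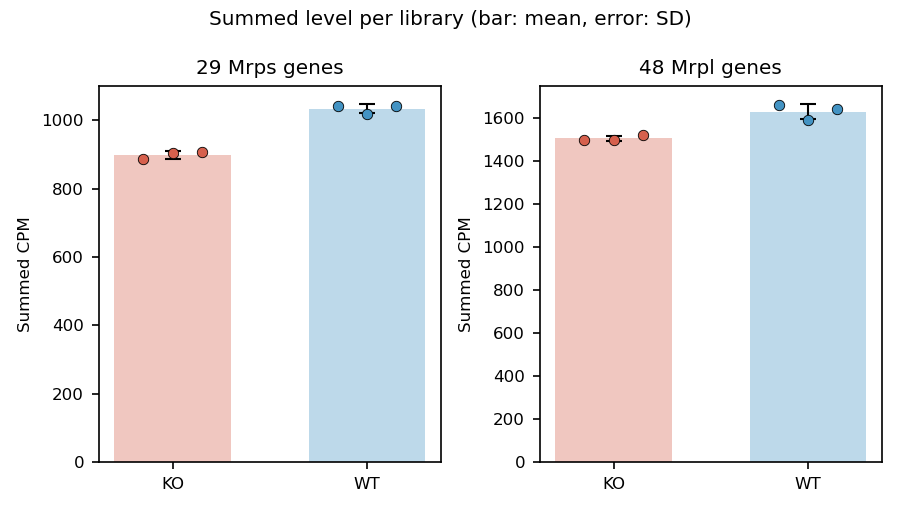
Summed CPM of the 29 Mrps genes (left) and the 48 Mrpl genes (right) in each library. Bars are means, error bars are SD over 3 libraries and points are libraries, with KO left of WT. All KO points lie below all WT points in both panels.

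Scaled to gene length, as TPM (counts divided by gene length and scaled to the same total in every library), levels can be compared between genes. Such values depend on the deposited gene lengths. The highest mean was that of Mrps6, at 307.7 ± 6.3 TPM in KO and 438.7 ± 13.4 TPM in WT (SD, n = 3 each). Mrpl33 followed with 297.0 ± 11.7 TPM in KO and 272.0 ± 14.7 TPM in WT, so that in KO these neighbours in rank lay within their spread. Mrps21 had 257.5 ± 14.7 TPM in KO and 192.4 ± 16.2 TPM in WT. Next came Mrpl12, a protein of the mobile stalk, at 167.0 ± 6.2 TPM in KO and 177.9 ± 2.5 TPM in WT, and Mrpl20, at 150.4 ± 9.0 TPM in KO and 152.4 ± 4.5 TPM in WT. The Mrps genes summed to 2056 ± 14.1 TPM in KO and 2258 ± 29.2 TPM in WT, and the Mrpl genes to 3265 ± 18.3 TPM in KO and 3413 ± 28.7 TPM in WT (SD, n = 3 each). In CPM, the mean level over all libraries ran from 5.71 for Mrpl55 to 125.1 for Mrps6, and the fewest counts in 1 library were 125, for Mrpl55.

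Among small-subunit proteins with a bacterial relative, 8 of 16 fell and 1 rose (6.25%), against 31.2% and 30.3% of all tested genes. Mrps5, the relative of bacterial S5, which lies by the messenger RNA entry site, had 30.1, 31.1 and 33.1 CPM in KO and 47.9, 46.7 and 47.2 CPM in WT. All KO libraries were well below all WT libraries. This was the largest fall of the family, 1.5-fold (log2 fold change −0.59, SE 0.05, edgeR adjusted p = 1.5e-16). Mrps5 lies on chromosome 2, whose tested genes had a median log2 fold change of −0.24. The median of the 38 other tested genes within 2 Mb of it was −0.37. Mrps6, the relative of bacterial S6, had 102.9, 99.8 and 101.5 CPM in KO and 148.8, 143.3 and 154.2 CPM in WT, again apart. It fell by 0.55 on the log2 scale (SE 0.03, edgeR adjusted p = 9.3e-24). The exons of Mrps6 share 145 bases, 18.6% of its length, with Slc5a3 on the same strand, a myo-inositol transporter gene that was higher in KO (670.0 against 521.6 CPM, log2 fold change 0.36, edgeR adjusted p = 4.7e-18).

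The 1 small-subunit gene that rose was Mrps21, the relative of bacterial S21. It had 43.0, 47.2 and 42.6 CPM in KO and 31.4, 35.6 and 35.1 CPM in WT, and the groups did not overlap (log2 fold change 0.38, SE 0.05, edgeR adjusted p = 4.3e-09). Mrps16, in which human variants cause a deficiency of oxidative phosphorylation, was called at the edge of the threshold (log2 fold change −0.13, edgeR adjusted p = 0.045), with 116.9 ± 2.9 TPM in KO and 124.1 ± 3.8 TPM in WT (SD, n = 3 each). That call was lost without KO replicate 1 (edgeR adjusted p = 0.14), KO replicate 3 (0.079), WT replicate 1 (0.074) or WT replicate 2 (0.10). Mrps14 differed by −0.01 on the log2 scale (SE 0.06, edgeR adjusted p = 0.87) and overlapped.

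Among the mitochondria-specific proteins of the small subunit, 7 of 10 fell (70.0%) and 0 rose, against 31.2% and 30.3% of all tested genes. The median log2 fold change of the 10 was −0.23. Classes by origin were taken from written lists, and the list used here counts Mrps18b, a paralog of Mrps18a and Mrps18c, among the 10. Mrps34, in which human variants cause a Leigh-like disease, had 17.7, 18.5 and 19.8 CPM in KO and 28.4, 27.9 and 26.8 CPM in WT. Its groups did not overlap (log2 fold change −0.56, SE 0.06, edgeR adjusted p = 3.7e-12). Mrps27, a pentatricopeptide repeat protein, had 20.8, 22.7 and 21.5 CPM in KO and 29.5, 25.7 and 26.7 CPM in WT, with no overlap (log2 fold change −0.33, edgeR adjusted p = 5.8e-06). Its exons share 314 bases with 6430562O15Rik on the other strand, which was not called. Mrps31 did not pass the test (log2 fold change −0.15, edgeR adjusted p = 0.068), and its lowest WT library, at 15.2 CPM, lay within the KO range of 14.9 to 15.6 CPM. Without WT replicate 1 it was called lower (edgeR adjusted p = 0.013).

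The Mrps18 paralogs went different ways. Mrps18b, of the small subunit, had 24.996, 24.9 and 26.4 CPM in KO and 31.9, 32.0 and 32.2 CPM in WT. It fell by 0.33 on the log2 scale, with groups that did not overlap (SE 0.06, edgeR adjusted p = 6.7e-07). Mrps18c, of the small subunit, and Mrps18a, which sits in the large subunit despite its symbol, did not pass the test, with log2 fold changes of 0.09 (edgeR adjusted p = 0.20) and 0.10 (edgeR adjusted p = 0.090). Without KO replicate 1 Mrps18a was called higher (edgeR adjusted p = 0.025). Mrps30, another Mrps symbol whose protein sits in the large subunit, fell by 0.23 (edgeR adjusted p = 8.0e-05). Mrps36, now assigned to the α-ketoglutarate dehydrogenase complex rather than to the ribosome, had 10.6, 9.98 and 10.9 CPM in KO and 13.0, 14.5 and 14.7 CPM in WT. It was lower in KO without overlap (log2 fold change −0.43, SE 0.08, edgeR adjusted p = 8.6e-06).

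**Figure D3:**
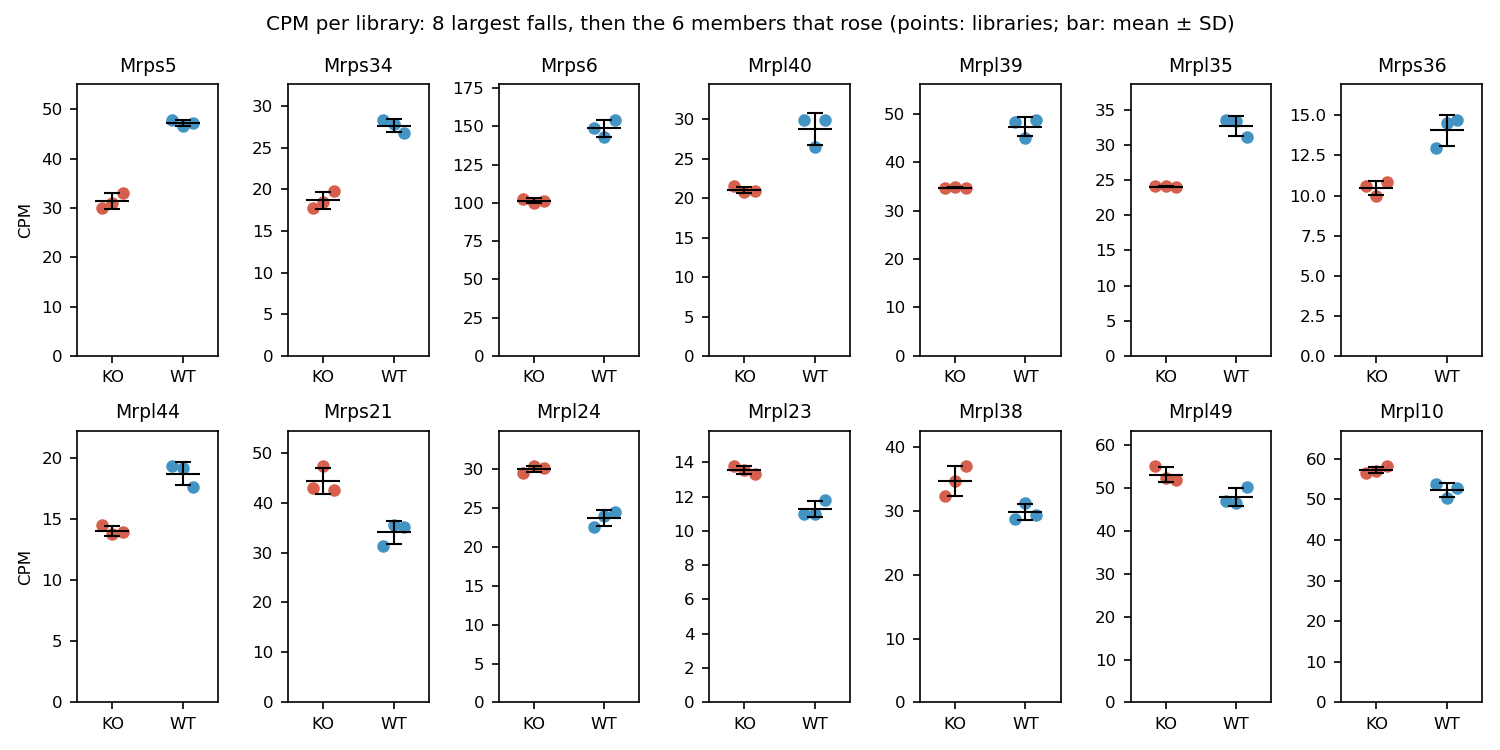
CPM in each library for the genes with the largest called changes, KO left of WT, with points for libraries and bars for the mean ± SD. The genes were chosen so that the KO points and the WT points do not overlap.

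Of the large-subunit proteins with a bacterial relative, 12 of 30 fell (40%) and 3 rose (10.0%), against 31.2% and 30.3% of all tested genes. The median log2 fold change of the 30 was −0.08. Mrpl35 had 24.1, 24.1 and 23.99 CPM in KO and 33.5, 33.4 and 31.1 CPM in WT. The KO libraries agreed closely and lay below all WT libraries (log2 fold change −0.44, SE 0.06, edgeR adjusted p = 5.1e-10). Mrpl24 had 29.6, 30.4 and 30.1 CPM in KO and 22.6, 24.04 and 24.5 CPM in WT, and was higher in KO without overlap (log2 fold change 0.34, edgeR adjusted p = 8.8e-07). Its exons share 355 bases with Rrnad1 on the other strand, which was also higher (log2 fold change 0.31, edgeR adjusted p = 7.0e-05), and the sources used here do not give the strand setting of the counting, so the reads of the pair cannot be told apart. Mrpl23, a protein by the exit of the peptide tunnel, had 13.8, 13.5 and 13.3 CPM in KO and 11.0, 11.0 and 11.8 CPM in WT, with no overlap (log2 fold change 0.26, edgeR adjusted p = 0.0040). Mrpl10, at the base of the stalk, rose by 0.13 (edgeR adjusted p = 0.0076), and Mrpl12, its partner in the stalk, fell by 0.13 (edgeR adjusted p = 0.0045). Without WT replicate 2 the call of Mrpl10 was lost (edgeR adjusted p = 0.067). Mrpl33 did not pass the test (log2 fold change 0.09, edgeR adjusted p = 0.090), nor did Mrpl20 (log2 fold change −0.06, edgeR adjusted p = 0.30). Without WT replicate 3 Mrpl33 was called higher (edgeR adjusted p = 0.028).

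Among the mitochondria-specific proteins of the large subunit, 11 of 20 fell (55.0%) and 2 rose (10.0%), against 31.2% and 30.3% of all tested genes. Mrpl40 had 21.5, 20.8 and 20.9 CPM in KO and 29.9, 26.5 and 29.9 CPM in WT. Mrpl39, which resembles a threonyl-tRNA synthetase, had 34.6, 34.8 and 34.7 CPM in KO and 48.3, 45.1 and 48.7 CPM in WT. Both were apart from WT in every library, and each fell by 0.45 on the log2 scale (edgeR adjusted p = 3.1e-09 for Mrpl40 and 2.8e-12 for Mrpl39). Mrpl44 has an RNase III fold, and human variants in it cause cardiomyopathy. It had 14.5, 13.7 and 13.9 CPM in KO and 19.3, 19.1 and 17.6 CPM in WT, also apart. The log2 fold change of Mrpl44 was −0.41 (SE 0.07, edgeR adjusted p = 1.3e-06). The median of the 9 other tested genes within 2 Mb of it was −0.44. Mrpl38 rose by 0.22 (edgeR adjusted p = 5.5e-04), with 32.4, 34.7 and 36.9 CPM in KO and 28.7, 31.2 and 29.4 CPM in WT. Mrpl49 rose by 0.15 (edgeR adjusted p = 0.0044), with 55.1, 52.4 and 51.8 CPM in KO and 46.9, 46.6 and 50.3 CPM in WT. The groups of both stood apart. The exons of Mrpl49 share 89 bases with Syvn1 on the other strand, which was also higher (log2 fold change 0.25, edgeR adjusted p = 3.0e-05). The lowest TPM of the large-subunit genes were those of Mrpl57, Mrpl55 and Mrpl17. Mrpl17 has a deposited length of 6712 bases, and its mean of 38.8 CPM stood above the members' median of 28.7 CPM. Of these genes Mrpl17 was called lower (log2 fold change −0.14, edgeR adjusted p = 0.016). That call was lost without WT replicate 1 (edgeR adjusted p = 0.15), and without KO replicate 3 Mrpl55 was called lower (edgeR adjusted p = 0.039).

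The 77 genes lie on 17 chromosomes, and chromosomes differ in these libraries. On chromosome 3, 70.0% of 643 tested genes were higher in KO, with a median log2 fold change of 0.30, and on chromosome 2, 58.4% of 1024 were lower, with a median of −0.24. Set against the median of its own chromosome, the log2 fold change was lower for 63 of the 77 genes and higher for 14, with a median difference of −0.13. The difference ran from −0.53 for Mrps34 to 0.25 for Mrpl23. Against the other tested genes within 2 Mb, which numbered 5 to 139, 59 members were lower and 18 higher, with a median difference of −0.13.

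The members on chromosomes 3 and 5 were 9, of which 2 rose and 0 fell. On chromosome 3 both calls were rises, those of Mrps21 and Mrpl24, and the median of its 5 members was 0.04. On chromosome 5 none of the 4 members was called, and their median of 0.07 compared with 0.19 for the 804 genes of the chromosome. Of those 804 genes 58.1% were higher. All 7 members on chromosome 6 fell, with a median of −0.21 where that of the chromosome was −0.10. Of the tested genes of chromosome 6, 43.3% were lower. All 3 members on chromosome 16 (Mrps6, Mrpl39 and Mrpl40) also fell, with a median of −0.45 against −0.06. There 37.4% of the tested genes were lower. On chromosome 11, which holds the most members, 5 of 10 fell and 2 rose, beside 25.1% lower and 33.1% higher among its tested genes. On chromosome 2, 3 of 4 members fell, beside 58.4% of its tested genes. The median of the 4 was −0.23, against −0.24 for the chromosome. On chromosome 14, 1 of 3 members fell, beside 44.3% of its tested genes. The median of the 3 was −0.04, above the −0.11 of the chromosome. Off chromosomes 2, 3, 5 and 12, 36 of 64 members fell and 4 rose, beside 32.3% lower and 25.9% higher among the 10029 tested genes there.

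**Figure D4:**
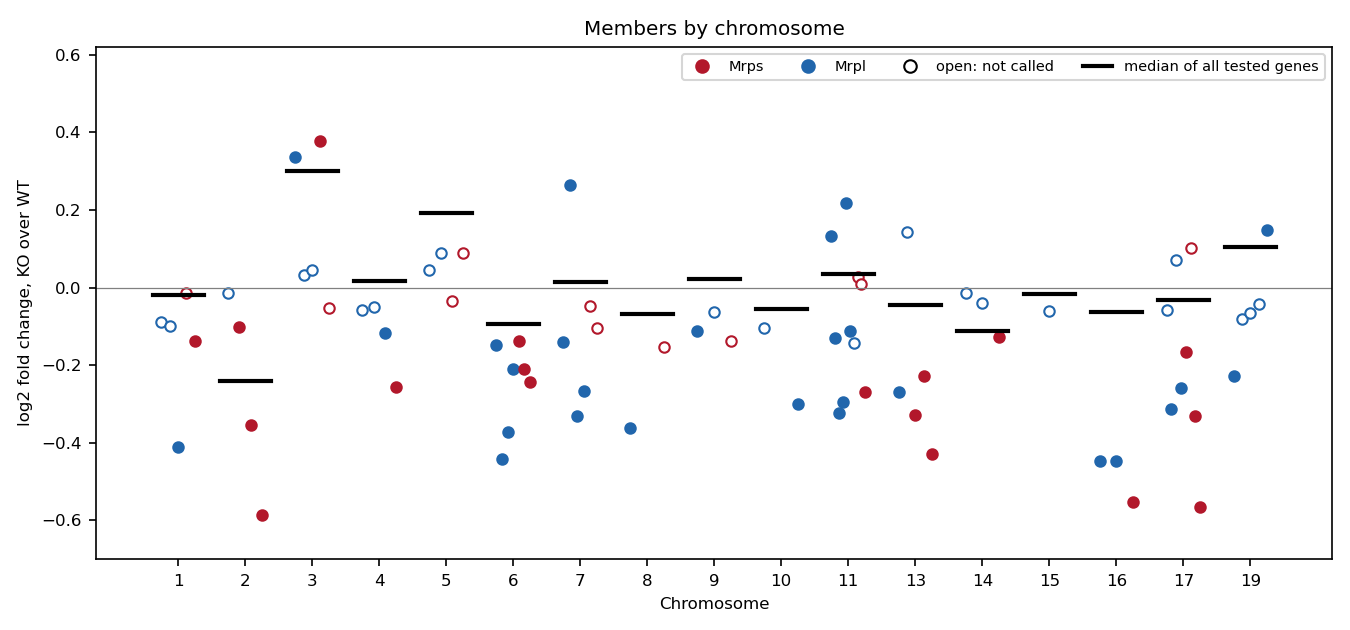
Log2 fold change, KO over WT, of each member by chromosome, with the median of all tested genes of that chromosome. On chromosome 3 the chromosome's median is 0.30 and that of its 5 members 0.04; on chromosome 16 all 3 members lie below the chromosome's median.

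Exons shared with a neighbour can bring its reads into a gene's count. Of the 77 members, 10 share exon bases with another gene. The largest shared part was 58.3% of the length of Mrps25, which was called lower, with Nr2c2 on the other strand. Nr2c2 was not called, at 120.3 CPM in KO and 122.4 CPM in WT, against 82.8 and 91.0 CPM for Mrps25. Mrpl41, not called, shares 41.4% of its length with Dph7 on the other strand, which was higher in KO. Without these, 33 of 67 members fell (49.3%) and 4 rose (5.97%), against 31.2% and 30.3% of all tested genes. The median log2 fold change of the 67 was −0.11. A gene on the same strand ended within 5 kb upstream of 8 members (10.4%, against 14.0% of all tested genes).

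Many members start back to back with another gene. A start on the other strand lay within 1000 bp upstream, or overlapping by up to 250 bp, for 27 of 77 members (35.1%), against 16.1% of 12936 tested genes. Of these 27 members, 5 were called in the same direction as their partner and 1 in the opposite direction. In 21 cases at least 1 of the pair was not called. How often such pairs agree among all tested genes, of which 61.4% were called, was not counted. Mrpl18 and Tcp1, a subunit of the cytosolic chaperonin, both had a log2 fold change of −0.31. Mrpl32 (−0.27) and the proteasome gene Psma2 (−0.17) also fell together, as did Mrpl27 (−0.29) and Eme1 (−0.37). Mrps18b fell whereas its partner Ppp1r10 rose (log2 fold change 0.15). Mrps34 fell beside Eme2, which was not called (log2 fold change 0.15, edgeR adjusted p = 0.13).

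**Figure D5:**
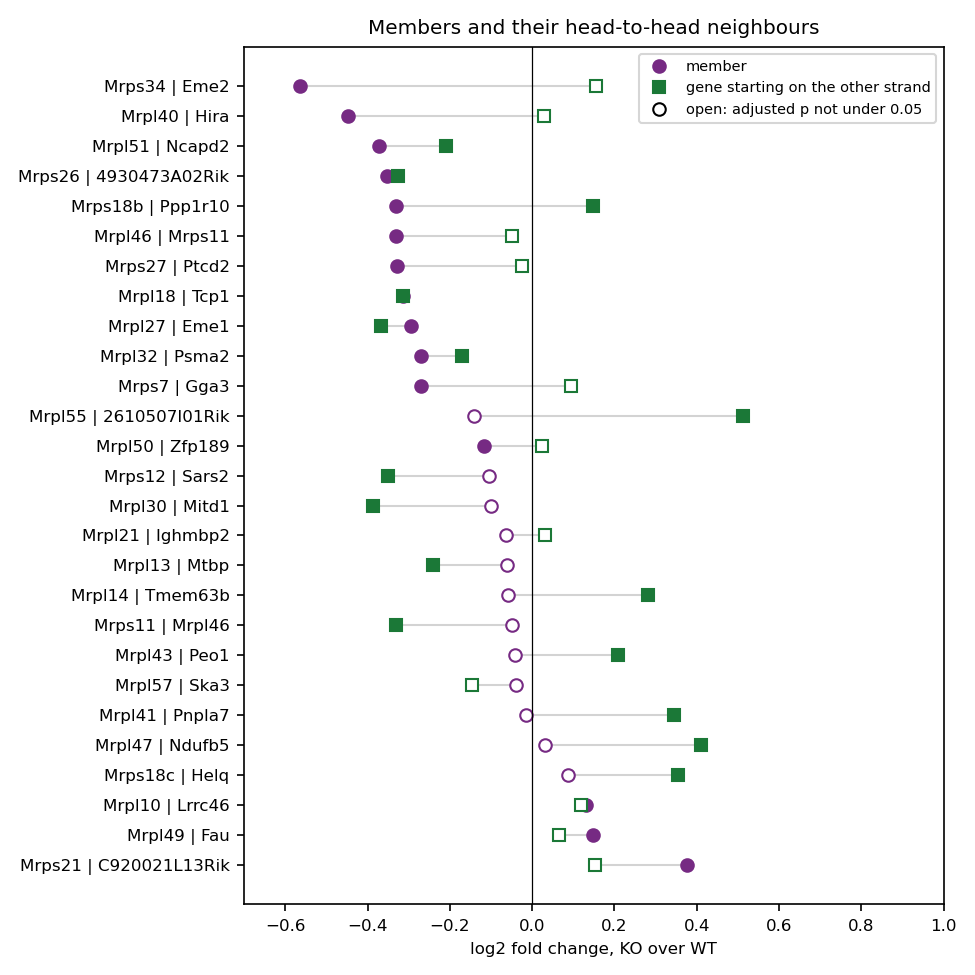
Log2 fold change, KO over WT, of the 27 members that have a divergent partner, each beside its partner. In 5 pairs both genes were called in the same direction and in 1 pair in opposite directions.

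Mrps11 and Mrpl46 are each other's partner, with starts 42 bp apart on chromosome 7, so this pair is counted from both sides above. Mrpl46 had 11.7, 11.8 and 10.5 CPM in KO and 13.8, 15.1 and 13.8 CPM in WT, and fell without overlap (log2 fold change −0.33, edgeR adjusted p = 3.7e-04). Mrps11 had 16.5, 16.1 and 17.1 CPM in KO and 17.8, 17.6 and 16.1 CPM in WT, which overlap (log2 fold change −0.05, edgeR adjusted p = 0.58). The 41 bases between their starts and the 204 bases between those of Mrpl32 and Psma2 are shown, since each is all that separates a pair. They are from RefSeq, GRCm38.p6, and capitals mark matches to the motifs described next.
Mrps11 and Mrpl46, chr7:78783090-78783130, plus strand: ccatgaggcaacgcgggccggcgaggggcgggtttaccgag
Mrpl32 and Psma2, chr13:14613038-14613241, minus strand: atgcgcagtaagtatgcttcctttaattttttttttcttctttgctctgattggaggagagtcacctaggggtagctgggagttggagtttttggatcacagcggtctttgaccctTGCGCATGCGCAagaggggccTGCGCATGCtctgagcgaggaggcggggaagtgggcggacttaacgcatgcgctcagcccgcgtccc

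Nuclear genes of mitochondrial proteins often have promoters without a TATA box and with sites for ETS factors such as GABP, for NRF1 and for YY1. RefSeq promoter windows, 250 bases before to 50 after the start, were found for 68 of the 77 members, as 74 windows. They were searched on both strands for CCGGAAG (ETS), TGCGCATGC (NRF1) and AAGATGGC (YY1), and 0 pairs of matches to different motifs overlapped. The ETS letters were in 33.8% of the members' windows, against 17.1% of the windows of tested genes and 8.86% of all windows. For NRF1 these shares were 8.11%, 2.92% and 1.52%, and for YY1 16.2%, 4.36% and 2.75%. TATAAA within 50 bases before the start was in 0 of 74 windows, against 1.44% of the windows of tested genes. A match is a description of the letters and not a site of binding.

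Members that fell and members that rose both held such matches. The median log2 fold change was −0.14 for the 25 genes with the ETS letters and −0.11 for the 43 without. It was −0.08 for the 12 with the YY1 letters and −0.13 for the 56 without. For NRF1 it was −0.20 for the 6 genes with the letters, of which 4 fell and 1 rose, and −0.11 for the 62 without. These differences were not tested. The following matches with 10 bases on either side, in the direction of the gene and with the motif in capitals, come from members that fell.
Mrpl22, ETS, chr11:58171601-58171627: ttttccggtcCCGGAAGccggcctcgg
Mrpl22, NRF1, chr11:58171620-58171648: ggcctcggacTGCGCATGCgtatagtcag
Mrpl27, ETS, chr11:94653726-94653752: tccgcaagacCCGGAAGtagatctatc
Mrpl51, ETS, chr6:125192100-125192126: aggggctaaaCCGGAAGtatttgactg
Mrps27, ETS, chr13:99344728-99344754: ggtaggaccaCTTCCGGcggaggcggg
Mrps27, YY1, chr13:99344790-99344817: ggtgcgctccAAGATGGCggctcccatg

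These come from members that rose, and the same letters are seen in them.
Mrps21, ETS, chr3:95871480-95871506: gtagcttccgCTTCCGGtccgcagaga
Mrpl10, NRF1, chr11:97041438-97041466: ccagctccacGCATGCGCAtagcggccct
Mrpl49, YY1, chr19:6057722-6057749: ttgaggcgccAAGATGGCagcagcggtg

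Of 11 nuclear regulators of mitochondrial genes, 3 rose (27.3%, against 30.3% of all tested genes) and 5 fell (45.5%, against 31.2%). Gabpa, the DNA-binding subunit of GABP, had 115.6, 118.0 and 114.0 CPM in KO and 133.8, 131.8 and 142.5 CPM in WT. It fell without overlap (log2 fold change −0.23, edgeR adjusted p = 1.5e-08), and so did Gabpb1, a partner subunit (log2 fold change −0.32, edgeR adjusted p = 1.2e-06). The other partner gene, Gabpb2, rose (log2 fold change 0.19, edgeR adjusted p = 3.6e-06), as did Myc (log2 fold change 0.22, edgeR adjusted p = 2.0e-07). Gabpb1 lies on chromosome 2, where the median log2 fold change of all tested genes was −0.24, and Gabpb2 on chromosome 3, where it was 0.30, so that Gabpb2 stood under the median of its chromosome. Nrf1 (log2 fold change −0.11, edgeR adjusted p = 0.063) and Yy1 (−0.06, edgeR adjusted p = 0.13) did not pass the test. The largest change of the list was the fall of Ppargc1b (−1.52, edgeR adjusted p = 6.4e-05), at 0.384 CPM in KO and 1.10 CPM in WT. Ppargc1a fell by 0.45 (edgeR adjusted p = 0.0017) and Esrra rose by 0.27 (edgeR adjusted p = 0.0016).

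Of 6 further subunits of the particle that carry other symbols, 4 fell (66.7%) and 1 rose (16.7%). Among all tested genes these shares were 31.2% and 30.3%. Chchd1 fell by 0.28 on the log2 scale (edgeR adjusted p = 2.0e-05), with 26.9, 27.4 and 27.8 CPM in KO and 33.5, 31.2 and 34.9 CPM in WT. Ptcd3, a pentatricopeptide repeat protein of the small subunit, fell by 0.20 (edgeR adjusted p = 7.5e-06), and Gadd45gip1, of the large subunit, by 0.14 (edgeR adjusted p = 0.0021). Dap3, the GTP-binding protein of the small subunit, rose by 0.19 (edgeR adjusted p = 2.1e-04), with 55.1, 57.4 and 51.7 CPM in KO and 49.6, 46.8 and 47.1 CPM in WT. Dap3 lies on chromosome 3 and stood under the median of that chromosome, 0.30.

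Of 18 tested translation factors, 8 fell and 2 rose, so that 55.6% were called, against 61.4% of all tested genes. Mrrf, which recycles ribosomes, had 18.3, 14.5 and 17.5 CPM in KO and 25.1, 25.3 and 22.4 CPM in WT, and fell by 0.53 on the log2 scale (edgeR adjusted p = 9.9e-10). Gfm2, which acts with Mrrf, fell by 0.31 (edgeR adjusted p = 1.3e-06), and the deformylase gene Pdf by 0.33 (edgeR adjusted p = 1.2e-05). The methionine aminopeptidase gene Metap1d fell by 0.45 (edgeR adjusted p = 5.7e-06). Of 14 genes of mitochondrial RNA processing, 9 fell and 2 rose (78.6% called), with Pnpt1, a polynucleotide phosphorylase, at −0.39 (edgeR adjusted p = 6.3e-13) and Fastkd5 at −0.50 (edgeR adjusted p = 1.6e-10). Fastkd1 stood at −0.40 (edgeR adjusted p = 2.2e-05) and Hsd17b10, a subunit of the mitochondrial RNase P, at −0.20 (edgeR adjusted p = 1.6e-04). Mrrf, Metap1d, Fastkd1 and Fastkd5 lie on chromosome 2, whose tested genes had a median log2 fold change of −0.24.

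Of 29 genes of ribosome assembly and ribosomal RNA modification, 8 fell and 4 rose, which is 41.4% called, against 61.4% of all tested genes. The 4 with the smallest adjusted p were the rises, namely the helicase gene Dhx30, the GTPase gene Gtpbp10, Wbscr16 and Mterf4, with log2 fold changes from 0.23 to 0.27. Gtpbp10 and Wbscr16 lie on chromosome 5, whose median was 0.19. Among 20 mitochondrial tRNA synthetases 5 rose and 5 fell, or 50% called. Wars2 rose by 0.54 on the log2 scale (edgeR adjusted p = 5.6e-11) and Ears2 by 0.54 (edgeR adjusted p = 2.2e-07), whereas Yars2 fell by 0.34 (edgeR adjusted p = 1.0e-05) and Aars2 by 0.36 (edgeR adjusted p = 1.3e-04). Wars2 lies on chromosome 3, whose median was 0.30. Of 13 genes of mitochondrial DNA upkeep and transcription 23.1% were called. The 2 that fell were the topoisomerase gene Top1mt (log2 fold change −0.48, edgeR adjusted p = 4.5e-06) and Ssbp1, a single-strand binding protein (−0.21, edgeR adjusted p = 2.8e-04). The 1 that rose was Peo1, the helicase also known as Twinkle and the divergent partner of Mrpl43 (log2 fold change 0.21, edgeR adjusted p = 1.3e-04). Mterf1b, on chromosome 5, at 1.49 ± 0.18 CPM in KO and 0.991 ± 0.339 CPM in WT (SD, n = 3 each), did not pass (edgeR adjusted p = 0.057), but was called higher without WT replicate 2 (edgeR adjusted p = 0.043) or WT replicate 3 (edgeR adjusted p = 0.042).

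Of 75 tested cytosolic ribosomal protein genes, 24 fell and 12 rose, with a median log2 fold change of −0.03. The 32.0% lower and 16% higher compare with 31.2% and 30.3% of all tested genes. Of 74 tested oxidative phosphorylation subunit genes, 33 fell (44.6%) and 12 rose (16.2%), with a median of −0.05. These 2 lists were taken by symbol after the data were seen, and the differences between the lists were not tested.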

How the data were processed

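RNA-seq was done on 3 KO and 3 WT samples of 3T3-L1 cells, depleted of ribosomal RNA with a stranded kit, per the labels' protocols. The authors deposited raw counts of reads per gene, with exon coordinates. Per the submitters' processing notes, the tools were STAR 2.6.1d and featureCounts 1.6.3 and the genome mm10 or GRCm38. For the strand setting and for reads with several alignments the treatment is not given in the sources used, and a further table of unnamed regions was not used. All 77 members overlap the RefSeq position of the same symbol on GRCm38.p6.

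Groups and replicate numbers came from the sample titles, which call the samples biological replicates. Nothing says that the cultures were separate, so p-values cover only the spread among these samples, which may be technical. KO was tested against WT in R 4.3.3 with edgeR 4.0.16 (quasi-likelihood F test, robust, TMM, filterByExpr with a minimum count of 10), two-sided, with Benjamini-Hochberg adjustment over the 12947 tested genes and calls at 0.05. The test was checked on simulated counts in which a small part of the genes was changed, equally in both directions. That check does not cover data such as these, in which 61.4% of the tested genes were called. CPM are scaled by TMM factors, and TPM use the deposited gene lengths without TMM factors. Library totals of 23767181 to 29389480 counts set the precision.

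The members and lists were chosen with earlier results of these data known. Named genes were Ube3d, the 8 largest rises and 8 largest falls among called members without overlap (6 rises existed), the 3 highest and 3 lowest TPM of each symbol class, the Mrps18 paralogs, Mrps36 and up to 4 genes of each other list by adjusted p. Other genes were named after their values were seen. The lists of cytosolic ribosomal proteins and of oxidative phosphorylation subunits were written after the data were seen. The symbol pattern of the second was corrected once after its counts had been seen, because it missed Cox4i1 and took in Atp5s and Atp5sl, and as first written it gave 11 rises and 32 falls of 74. The other settings tried were DESeq2 1.42.0, limma-voom in limma 3.58.1, RLE size factors, a filter of at least 1 CPM in 3 libraries or none, a replicate block, TMM factors from genes off chromosomes 2, 3, 5 and 12, leaving out Rn45s, and leaving out each library in turn.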

Additional observations from a re-analysis of the deposited data

How the results depend on the processing

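Over the 8 other settings and the 6 fits that left out 1 library, 28 members were lower and 5 higher (Mrpl23, Mrpl24, Mrpl38, Mrpl49 and Mrps21) in every one. The members called lower numbered 32 to 40 and those called higher 5 to 9. With TMM factors from genes off chromosomes 2, 3, 5 and 12, the median of all tested genes was 0.026 on the log2 scale, the median of the members −0.095 and that of the Mrpl genes −0.080. In that setting 2 Mrps genes rose. Leaving out 1 library at a time gave 1 to 2 Mrps genes that rose and a median of the Mrps genes between −0.17 and −0.13. The cause was not tested.

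Single genes near 0 changed sign. Mrps14 had a log2 fold change of 0.0093 with those TMM factors, and between −0.054 and 0.057 when 1 library was left out, with 0.011 without KO replicate 3 and 0.057 without WT replicate 3. Mrpl57 ranged from −0.12 to 0.038, with 0.038 without KO replicate 2 and 0.021 without WT replicate 1.

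With the replicate number as a block, 37 members were lower and 6 higher, and 7816 genes were called in all. The deviations of same-numbered KO and WT libraries correlated at −0.029, −0.033 and −0.032, so no shared deviation was seen. Whether same-numbered samples were handled together is not stated in the sources used, and these values cannot tell.

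With 3 libraries per genotype the median SE of a member's log2 fold change was 0.057, beside a median absolute change of 0.14. The smallest member change that was called was −0.10 (Mrps2, edgeR adjusted p = 0.0497), a call that was lost in at least 1 of the other fits. Changes of 0.14 to 0.15 in size were not called in Mrps22, Mrpl36, Mrps31 and Mrpl55.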
